A study of Mus musculus with 16 samples.

Results

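The genes described here are 35 nuclear receptors of the mouse that are not steroid receptors, taken by name from a fixed list of symbols. All 35 had at least 1 probe on the array, matched through the RefSeq accession of the probe. Of these, 31 passed the filter on dim signal and were tested among 24651 genes and unnamed targets. The other 4, Nr4a3, Esrrb, Nr2e1 and Nr2e3, were measured but not tested. A set of 24 members was well above background on all 16 arrays.

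The study exposed newborn mice to genistein, an estrogen-like compound of soy, and gave them dexamethasone, a synthetic glucocorticoid, as adults. GenD mice received 50 mg/kg genistein on postnatal days 1 to 5 and 1 mg/kg dexamethasone at 8 weeks. SalD mice, called saline in the labels, received 20 µl of the corn oil carrier as pups per the design text, and the same adult dexamethasone. GenV mice had neonatal genistein and 100 µl of saline vehicle as adults, and SalV mice had the neonatal carrier and the adult vehicle. All 4 groups had lost their adrenal glands and ovaries at 6 weeks, and the uterus was taken 4 h after the adult injection. Each group had 4 arrays of whole uterus RNA. The labels name no strain and are silent on whether arrays of a group came from different mice. The p-values thus reflect array-to-array spread, part of which may be technical.

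Nuclear receptors are transcription factors whose ligand-binding domain senses small lipophilic molecules. Retinoic acid, thyroid hormone, vitamin D, fatty acid and oxysterol receptors bind DNA as partners of a retinoid X receptor, while orphan receptors of the NR4A, NR5 and estrogen-related groups can bind as monomers and respond mainly through their own abundance or through coactivators. In the uterus, retinoid signalling, the NR5 receptor Nr5a2 and fatty acid receptors take part in implantation and in the change of stroma into decidua.

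Levels are scaled log2 signal, log2 of the processed spot signal less the array's own 75th percentile, which therefore sits at 0. They compare the same probe between arrays and not one gene with another. The 75th percentile ranged over arrays from 948 to 2719 signal units. It was 1321 to 1803 in GenD, 1987 to 2719 in SalD, 1439 to 1970 in GenV and 948 to 2029 in SalV. The highest values were those of SalD arrays 1, 3 and 4, and the lowest was that of SalV array 3, alone on slide 5. The share of spots well above background ran from 68.9%, on SalV array 3, to 81.3%. Correlations between arrays over all genes were 0.963 to 0.988 within groups and 0.933 to 0.986 between groups. The uterine marker list, 11 of 12 genes measured (Msx1 did not pass the filter), averaged 3.05 to 3.40 on every array. The glucocorticoid-induced genes used to check the adult treatment rose in both arms: Fkbp5, a cochaperone of the glucocorticoid receptor, by 4.56 after genistein and 4.44 in controls, Tsc22d3 by 2.40 and 2.42, and the clock gene Per1 by 2.47 and 1.47 (log2 fold changes, limma, all called). Cell type markers differed between arrays. The mean level of 17 measured adipocyte markers spanned -0.77 to 1.40 in GenD, -0.16 to 2.71 in SalD, -0.08 to 1.08 in GenV and -2.27 to 0.03 in SalV, with SalD arrays 2 and 3 the highest at 2.71 and 2.58. Counts are therefore given with and without those 2 SalD arrays, a choice made after the data were seen. Lymphocyte markers were lowest on the SalD arrays. Their mean spanned -3.54 to -2.88 in GenD, -4.17 to -3.83 in SalD, -2.97 to -2.64 in GenV and -3.26 to -2.57 in SalV, so all 4 SalD arrays lay below the other 12. Of the 12, 7 fell in SalD against SalV and 0 rose, beside 14.6% and 8.45% of all genes. In GenD against SalD 6 were higher and 0 lower, beside 16.5% and 6.39% of all genes. Endothelial markers fell in controls for 5 of 10 and smooth muscle markers for 3 of 9, beside 14.6% of all genes. Smooth muscle means spread over 1.72 to 2.87 within SalD. GenV arrays 3 and 4 differed from GenV arrays 1 and 2, with smooth muscle means of 1.91 and 2.36 beside 2.91 and 2.90 and epithelial means of 2.73 and 2.67 beside 1.82 and 1.84. Of the 31 tested receptors, 13 read lower on both of those arrays than on the other pair, Thrb, Vdr, Rora, Nr2c2, Ppara and Nr5a2 among them, and 9 read higher on both. The part of these cells in the receptor values below was not tested.

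The promoters of 5 members are shown because they carry letters that nuclear receptors or immediate early factors are known to bind and illustrate the families described below. Rarb, 1 of the 5, was called in no comparison and is shown for its well known element. The sequences are RefSeq windows of build GRCm38.p6 that run from 250 bases before to 50 bases after a transcription start, printed 5′ to 3′ on the gene's strand, and 33 of 35 members had such windows, 50 in all. Both strands were searched, and positions count from the start site. For Nr4a1, chr15:101266596-101266895 on the + strand, capitals mark the AP-1-like element TGCGTCA, whose letters were chosen after the sequence was read.
Nr4a1: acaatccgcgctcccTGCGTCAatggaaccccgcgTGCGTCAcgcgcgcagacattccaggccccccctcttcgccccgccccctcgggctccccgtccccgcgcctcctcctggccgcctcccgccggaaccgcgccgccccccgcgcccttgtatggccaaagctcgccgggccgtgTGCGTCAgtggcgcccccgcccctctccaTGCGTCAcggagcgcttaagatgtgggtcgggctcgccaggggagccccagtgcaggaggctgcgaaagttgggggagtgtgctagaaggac
For the second listed starts of Rxra (chr2:27709042-27709341, + strand) and Rxrg (chr1:167618015-167618314, + strand), capitals mark AAAGGTCA, the monomer site of NR4A receptors, which contains the nuclear receptor half-site AGGTCA.
Rxra: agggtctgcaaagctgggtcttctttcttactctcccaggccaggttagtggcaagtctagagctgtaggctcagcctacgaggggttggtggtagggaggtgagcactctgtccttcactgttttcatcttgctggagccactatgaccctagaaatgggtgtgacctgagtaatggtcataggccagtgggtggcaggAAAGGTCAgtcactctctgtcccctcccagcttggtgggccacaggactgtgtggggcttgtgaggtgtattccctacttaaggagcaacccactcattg
Rxrg: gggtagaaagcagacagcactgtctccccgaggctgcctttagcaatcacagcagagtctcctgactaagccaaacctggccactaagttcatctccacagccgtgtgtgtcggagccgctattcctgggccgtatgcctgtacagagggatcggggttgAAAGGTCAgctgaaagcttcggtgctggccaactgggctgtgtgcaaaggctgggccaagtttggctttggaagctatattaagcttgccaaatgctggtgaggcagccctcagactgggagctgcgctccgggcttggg
For Rarb, chr14:16575427-16575726 on the - strand, capitals mark the retinoic acid response element, a direct repeat through which retinoic acid receptors raise the transcription of this receptor's own gene.
Rarb: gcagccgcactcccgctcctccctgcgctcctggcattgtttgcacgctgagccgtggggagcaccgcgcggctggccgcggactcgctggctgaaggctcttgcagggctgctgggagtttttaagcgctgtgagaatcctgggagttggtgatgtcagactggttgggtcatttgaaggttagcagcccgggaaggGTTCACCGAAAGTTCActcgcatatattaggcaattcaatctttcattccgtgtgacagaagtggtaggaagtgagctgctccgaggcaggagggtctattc
For Nr0b2, chr4:133553126-133553425 on the + strand, capitals mark TCAAGG, the core of NR5 receptor sites, again chosen after the sequence was read.
Nr0b2: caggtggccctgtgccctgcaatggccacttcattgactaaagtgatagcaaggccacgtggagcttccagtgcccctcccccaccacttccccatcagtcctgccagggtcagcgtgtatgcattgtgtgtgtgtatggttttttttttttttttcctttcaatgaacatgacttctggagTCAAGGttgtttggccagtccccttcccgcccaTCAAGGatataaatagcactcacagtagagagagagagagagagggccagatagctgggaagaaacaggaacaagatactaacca

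TGCGTCA began at -235, -215, -71 and -42 in the Nr4a1 window, and 2.12% of 32851 promoters of this length held it at least once. AAAGGTCA began at -50 in the Rxra window and at -90 in the Rxrg window, against 1.51% of all promoters. These were the only 2 of 50 member promoters with those letters. The 2 genes moved in opposite directions in controls, as given below, and the part of these letters in either change was not tested. The retinoic acid response element lay at -52 in the Rarb window and in 0.0761% of all promoters. TCAAGG began at -68 and -35 in the Nr0b2 window and was common, in 14.4% of all promoters. The half-site AGGTCA was in 9 of 50 member promoters (18%), against 16.3% of all promoters, and TGTTCT, the steroid receptor half-site, in 5 of 50 (10%), against 19% of all promoters. The palindromic glucocorticoid response element was in 0 of 50 member windows and in 0.00913% of all promoters. A match describes letters only, and the lack of one says nothing about binding elsewhere.

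Dexamethasone in control mice moved 11 of the 31 tested receptors, 2 higher and 9 lower in SalD than in SalV, a share of 35.5% where 23% of all genes and targets passed the same threshold (8.45% higher and 14.6% lower). The receptors that fell were Rara, Rarg, Rxrg, Nr1h2, Nr1h3, Esrrg, Nr5a1, Nr5a2 and Nr0b2, and those that rose were Rxra and Nr4a1. After neonatal genistein the same drug moved 1 of 31, Rxrg, which was lower in GenD than in GenV (3.23%, against 5.29% of all genes, 2.49% higher and 2.8% lower). Set between the 2 dexamethasone groups, 11 of 31 receptors differed, 8 higher and 3 lower in GenD than in SalD, against 22.9% of all genes (16.5% higher and 6.39% lower). Under vehicle 0 of 31 differed between GenV and SalV (0.00406% of all genes). Calls are at an adjusted p below 0.05 from limma, with Benjamini-Hochberg adjustment over the whole table, and the members were listed with earlier results of these data known.

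**Figure D1:**
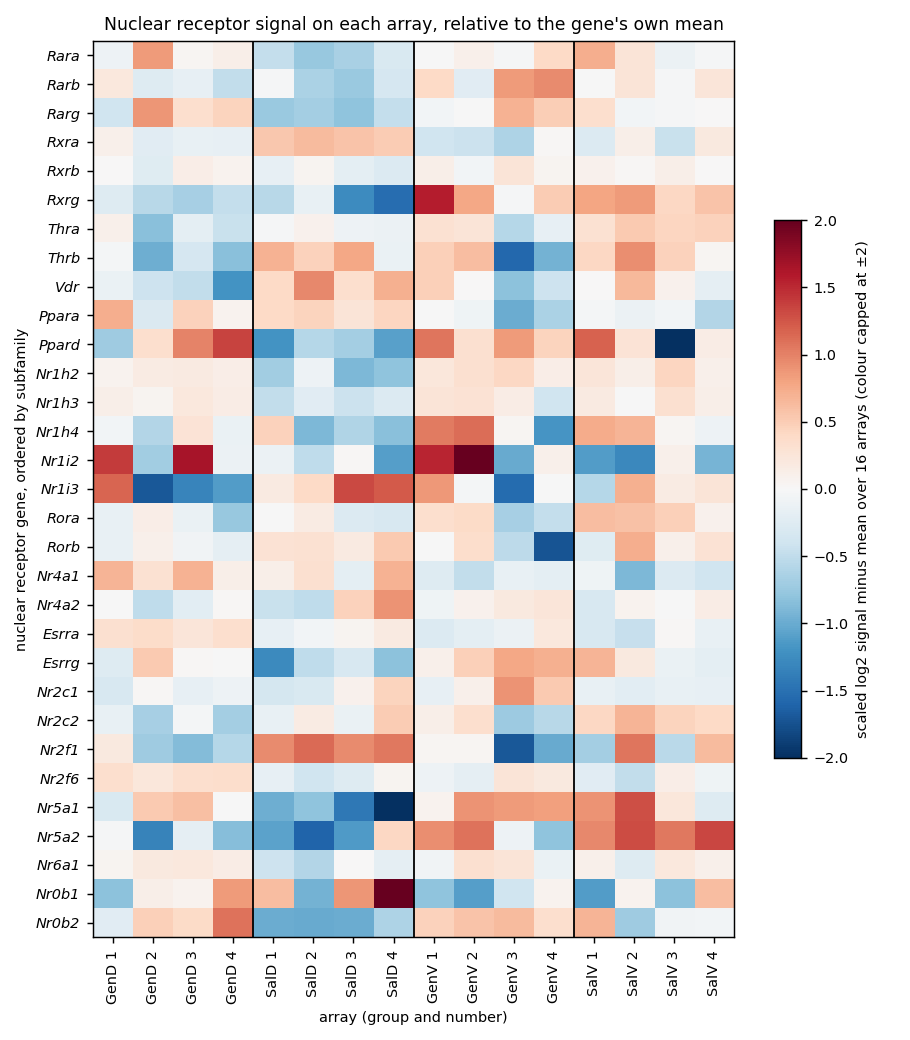
Scaled log2 signal of the 31 tested receptors (rows, by subfamily) on each of 16 arrays (columns, by group), as the difference from the gene's own mean over all arrays; colour is capped at ±2. The 4 SalD columns stand apart for Rara, Rarg, Nr1h2 and Nr5a1, which are low there, and for Rxra, which is high there; for Nr0b2 1 SalV array lies among the low SalD arrays.

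The median log2 fold change of the 31 receptors was -0.34 in SalD against SalV, beside -0.16 over all genes, and -0.12 in GenD against GenV, beside -0.01. In GenD against SalD it was 0.25, beside 0.12 over all genes. These medians moved with single arrays and settings. In controls the receptors' median was -0.20 without SalV 1, -0.11 with median scaling and -0.59 with the normexp background. After genistein it was -0.06 without GenV 1, -0.05 without GenV 2, -0.24 without GenV 4, -0.21 without GenV arrays 3 and 4, and 0.24, of opposite sign, with normexp, where the median of all genes was 0.31. In GenD against SalD it was 0.14 without GenD 1 or without GenD 3, 0.15 without SalD 3, 0.13 with median scaling, 0.14 with quantile normalization and 0.53 with normexp. It was below that of all genes without SalD arrays 2 and 3 (0.04, beside 0.12) and with slide as a fixed block (0.03, beside 0.10). These comparisons share arrays: both of the larger ones rest on the 4 SalD arrays, so they are not 2 separate observations. The groups did not overlap for 12 of 31 receptors in controls (28.3% of all genes), for 3 of 31 after genistein (12.2%), for 14 of 31 in GenD against SalD (28.6%) and for 2 of 31 in GenV against SalV (4.77%). Without SalD arrays 2 and 3, 5 receptors were called in controls (1 higher, 4 lower), 16.1% beside 14.5% of all genes in that fit, and 3 in GenD against SalD (3 higher, 0 lower), 9.68% beside 9.71%. Without those arrays the receptors' shares thus lay close to the shares of the whole table. The split depended on the scaling. With median scaling the call counts in controls were 3 higher and 4 lower among receptors and 3431 higher and 1864 lower over the table, in place of 2082 and 3587, and with quantile normalization 2 and 5 among receptors and 2262 and 2521 over the table. In GenD against SalD the table held 4078 higher and 1576 lower calls, against 2615 and 2030 with median scaling and 3017 and 2348 with quantile normalization, where 5 receptors were higher in both and 3 and 4 were lower. The median of all genes in controls was 0.07 with median scaling, -0.04 with quantile normalization and -0.49 with a normexp background, in place of -0.16, and fold changes below are best read relative to it.

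Dim genes as a class were lower in SalD. Sorting all tested genes into 5 equal classes by mean signal, the median log2 fold change in SalD against SalV was -0.53 in the dimmest class, -0.38 in the 2nd, -0.16 in the 3rd, 0.01 in the 4th and 0.02 in the brightest. The receptors that fell were 1 of 5 in the dimmest class, 5 of 8 in the 2nd, 1 of 9 in the 3rd, 1 of 3 in the 4th and 1 of 6 in the brightest, where the shares of all genes lower were 15.2%, 18.1%, 16.8%, 12.7% and 9.9% in that order. Both receptors that rose were among the 6 in the brightest class, where 12% of all genes were higher. In GenD against SalD the class medians ran the other way, 0.64 in the dimmest, 0.23 in the 2nd, 0.01 and 0.02 in the next 2 and 0.09 in the brightest. Beside their own class medians in controls, Nr5a2 stood -1.63 lower, Nr5a1 -1.57 and Rxrg -1.15, while Rara stood -0.38 and Nr0b2 -0.33 from theirs. The part of the class shift in these changes was not tested. The 75th percentile subtracted from each level was highest on SalD arrays 1, 3 and 4, and its part in the class shift was not tested.

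**Figure D2:**
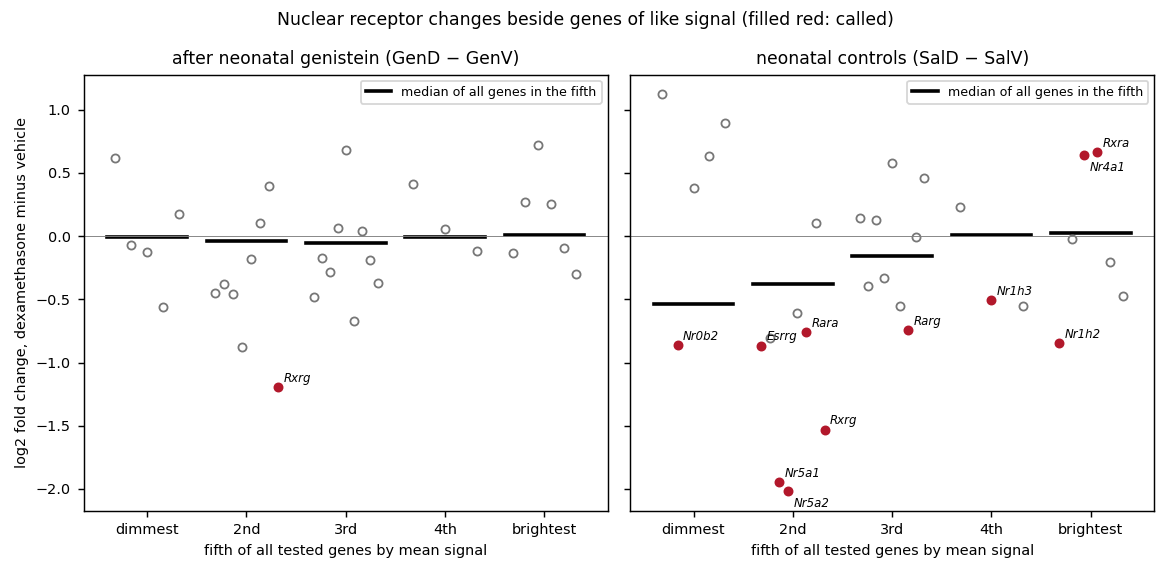
Log2 fold change of each receptor (points, filled red where called) for GenD minus GenV on the left and SalD minus SalV on the right, by 5 equal classes of all tested genes in mean signal, dimmest to brightest; black bars are the medians of all genes in the class. On the right the bars climb from -0.53 to 0.02, with Nr5a1, Nr5a2 and Rxrg far below the bar of the 2nd class; on the left the bars lie between -0.06 and 0.01.

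The group means of the retinoic acid receptors were lowest in the control uteri given dexamethasone, though the SalD arrays of Rarb overlapped those of GenD and GenV. Rara, Rarb and Rarg bind all-trans retinoic acid and act with a retinoid X receptor on the same kinds of response element. Of the 3, Rara and Rarg fell in SalD and were higher in GenD than in SalD, and Rarb was called in neither.

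Rara read -4.90, -4.76, -4.68 and -3.95 on GenD arrays and -5.56, -5.44, -5.28 and -5.09 on SalD arrays, each group listed from low to high. Its GenV arrays gave -4.82, -4.80, -4.69 and -4.40, and its SalV arrays -4.90, -4.82, -4.54 and -4.06. All 4 SalD arrays lay below the other 12. Rara was 1.69-fold lower in SalD than in SalV (log2 -0.76 ± 0.22 SE, limma adjusted p 0.0269), and the differences within the 3 slides that held both groups were -1.26, -0.74 and -0.62. Alternative fits kept it in 21 of 29 cases, and the call ended on leaving out any 1 of SalV 1, SalV 2, SalD 2 and SalD 3 (adjusted p 0.0547 to 0.0907), and also with quantile normalization, with median scaling, with the normexp background and without SalD arrays 2 and 3 (adjusted p 0.0773 to 0.249). In GenD it was 1.7-fold higher than in SalD (0.77 ± 0.22, adjusted p 0.0265), with 0.76 and 1.33 within the 2 slides that held both. Each such value, here and for the receptors below, is 1 GenD array less 1 SalD array. SalD arrays 2 and 4 were on slide 1, which held no GenD array, and GenD arrays 1 and 3 were on slide 2, which held no SalD array. In 23 of 29 alternative fits the call remained, and it was lost on leaving out any 1 of SalD 2, SalD 3 and GenD 2 (adjusted p 0.0589 to 0.0672), and also with quantile normalization, with the normexp background and without SalD arrays 2 and 3 (adjusted p 0.0609 to 0.18). After genistein the dexamethasone difference was 0.11 (adjusted p 0.883).

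For Rarg the GenD arrays read -2.75, -2.02, -1.91 and -1.46 and the SalD arrays -3.15, -3.10, -3.03 and -2.83. The vehicle groups read -2.41, -2.36, -1.86 and -1.65 in GenV and -2.41, -2.38, -2.34 and -2.01 in SalV. Again the SalD arrays were the lowest 4 of 16, with no overlap. The SalD level was 1.67-fold lower than that of SalV (-0.74 ± 0.24, adjusted p 0.0388; -0.92, -0.81 and -0.69 within slides). Among 29 alternative fits, 16 kept the call, which was lost on leaving out any 1 of SalV 1, SalV 2, SalV 3, SalV 4, SalD 1, SalD 2, SalD 3, SalD 4 and GenD 3 (adjusted p 0.051 to 0.114), and also with quantile normalization, with median scaling, with no filter on dim probes and without SalD arrays 2 and 3 (adjusted p 0.0505 to 0.177). The GenD level was 1.99-fold higher than that of SalD (0.99 ± 0.24, adjusted p 0.0127; 1.25 and 1.63 within slides). With other settings the call was kept in 28 of 29 fits and ended without SalD arrays 2 and 3 (adjusted p 0.0794). A second, dimmer Rarg probe gave -0.84 in controls and 0.91 in GenD against SalD.

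Rarb, itself a classical target of retinoic acid through the element shown above, spanned -2.44 to -1.74 in GenD, -2.69 to -1.97 in SalD, -2.17 to -1.0 in GenV and -1.97 to -1.69 in SalV. Dexamethasone differences were -0.67 ± 0.24 after genistein (adjusted p 0.144) and -0.55 ± 0.24 in controls (adjusted p 0.114), both short of the threshold.

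Retinoid X receptors are the shared partners of many of the other receptors. Rxrg, the form best known from muscle and brain, was lower with dexamethasone in both arms, and Rxra, the most widely used form, was higher in SalD than in SalV and lower in GenD than in SalD. Rxrb, a broadly expressed form, was called in no comparison.

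Rxrg read -4.60, -4.49, -4.42 and -4.20 on GenD arrays and -3.96, -3.44, -3.17 and -2.37 on GenV arrays. The control arms read -5.46, -5.20, -4.50 and -4.08 in SalD and -3.52, -3.36, -3.15 and -3.08 in SalV. All 8 dexamethasone arrays lay below all 8 vehicle arrays. After genistein Rxrg was 2.29-fold lower (-1.19 ± 0.32, adjusted p 0.0459; -2.03, -1.25 and -1.05 within slides). This call was kept in 12 of 29 alternative fits; it ended on leaving out any 1 of SalV 1, SalV 2, SalV 3, SalV 4, SalD 1, SalD 3, GenV 1, GenV 2, GenV 4, GenD 1, GenD 2, GenD 3 and GenD 4 (adjusted p 0.0537 to 0.121), and also with the normexp background, with no filter on dim probes, with slide as a fixed block and with only the arrays compared (adjusted p 0.0621 to 0.769). In controls Rxrg was 2.89-fold lower (-1.53 ± 0.32, adjusted p 0.00529; -1.84, -1.62 and -1.42 within slides). All 29 alternative fits of Rxrg here kept the call. The difference between the 2 falls was 0.34 ± 0.45 (interaction, adjusted p 0.738).

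Rxra was highest in SalD. It read 3.73, 3.78, 3.80 and 4.05 in GenD and 4.46, 4.49, 4.53 and 4.59 in SalD. Vehicle arrays gave 3.33, 3.52, 3.56 and 3.97 in GenV and 3.51, 3.68, 4.07 and 4.15 in SalV. The 4 SalD arrays were the highest of the 16, with a narrow spread. SalD was 1.59-fold higher than SalV (0.67 ± 0.17, adjusted p 0.0124; 0.38, 0.42 and 0.85 within slides). Alternative fits kept it in 27 of 29 cases, and the call ended with the mean of the gene's probes and without SalD arrays 2 and 3 (adjusted p 0.0752 to 0.865). GenD was 1.6-fold lower than SalD (-0.68 ± 0.17, adjusted p 0.0135; -0.76 and -0.75 within slides). In 27 of 29 alternative fits the call remained, and it was lost with the mean of the gene's probes and without SalD arrays 2 and 3 (adjusted p 0.0831 to 0.351). A second, much dimmer Rxra probe gave -0.47 ± 0.71 in controls, opposite in sign and not called. Rxrb levels spanned 1.31 to 1.85 over all groups, with differences of -0.10 and -0.21 by dexamethasone after genistein and in controls.

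**Figure D3:**
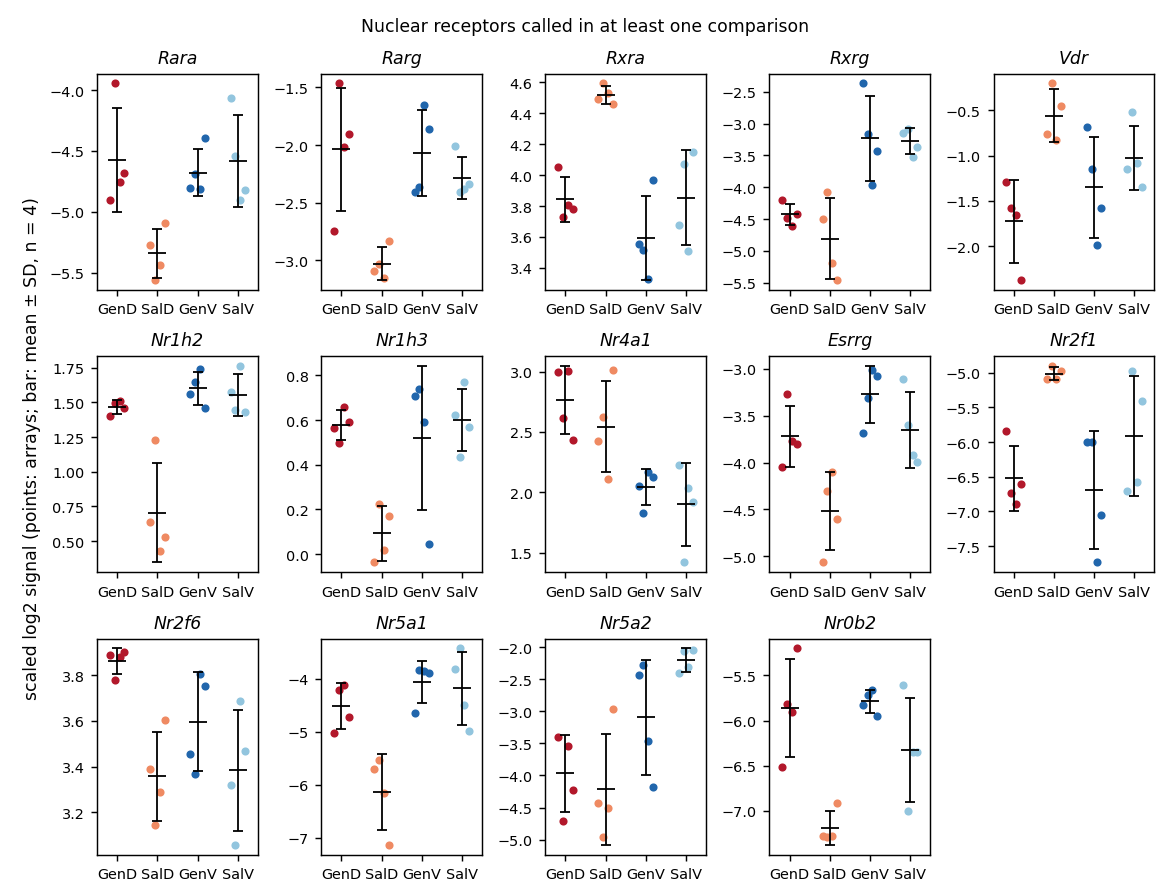
Scaled log2 signal on each array (points) with the group mean ± SD (bars, n = 4) for the 14 receptors called in at least 1 comparison; groups run GenD, SalD, GenV, SalV, and each panel has its own axis. Rxrg is low in both dexamethasone groups, whereas Rara, Rarg, Nr1h2 and Nr5a1 have their SalD points below the other 12 and Rxra has them above.

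Genes that make, carry or answer to retinoids moved in both directions. Of 16 tested, 1 rose and 1 fell after genistein, and 2 rose and 3 fell in controls, while GenD exceeded SalD for 3 and fell below it for 0. Shares of all genes were 2.49% and 2.8%, 8.45% and 14.6%, and 16.5% and 6.39% in that order. The retinoic acid synthesis enzyme Aldh1a2 rose in both arms (0.77 after genistein, 0.68 in controls), and Rdh10, which makes retinal from retinol, fell in both (-0.72 and -0.60). The retinol carrier Rbp4 rose by 2.26 in controls (adjusted p 0.000729), where adipocyte markers were also higher. The retinoic acid binding protein Crabp1 and the chemerin gene Rarres2 were lower in SalD than in SalV (-1.46 and -0.93) and higher in GenD than in SalD (1.24 and 0.68). Cyp26b1, which breaks down retinoic acid, was 1.53 higher in GenD than in SalD (adjusted p 0.0324). Adipocytes are rich in Rbp4, and 11 of 17 measured adipocyte markers rose in SalD against SalV, beside 8.45% of all genes. Their part in the Rbp4 value was not tested.

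Thyroid hormone receptors Thra and Thrb were called in no comparison. Thra spanned 2.74 to 3.67 in GenD, 3.45 to 3.66 in SalD, 3.01 to 3.88 in GenV and 3.88 to 4.10 in SalV. Its SalV arrays were thus above every SalD array and above every GenV array, but the differences, -0.47 ± 0.21 for SalD (adjusted p 0.111) and -0.48 ± 0.21 for GenV (adjusted p 0.354), did not pass. A second, dimmer Thra probe gave -1.0 in controls, with an adjusted p over all probes of 0.00795, so the 2 probes differed in call. Thrb was -1.0 ± 0.43 in GenD against SalD (adjusted p 0.0998), and its GenV arrays alone ranged over -2.51 to -0.32, with arrays 3 and 4 the low pair.

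Of 11 tested genes of thyroid hormone transport and response, Thra and Thrb themselves among them, 2 rose and 1 fell after genistein (2.49% and 2.8% of all genes). In controls 3 rose and 2 fell (8.45% and 14.6% of all genes). Klf9, which both thyroid hormone and glucocorticoids induce, rose by 1.86 after genistein and 1.09 in controls. Dio3, which inactivates thyroid hormone, rose by 1.17 and 0.90. Dio2, the activating deiodinase, fell in controls (-1.59, adjusted p 0.00459). Between GenD and SalD 1 of the 11 was called, the thyroid hormone carrier Slco1c1, higher by 1.35, where 16.5% of all genes were higher.

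Vdr, the vitamin D receptor, was lower in GenD than in SalD. It read -2.37, -1.65, -1.58 and -1.30 on GenD arrays and -0.83, -0.77, -0.45 and -0.21 on SalD arrays. The GenV arrays read -1.98, -1.58, -1.15 and -0.69 and the SalV arrays -1.34, -1.15, -1.08 and -0.52. Both dexamethasone groups were apart, whereas each overlapped its own vehicle group. The GenD level was 2.23-fold lower than that of SalD (-1.16 ± 0.29, adjusted p 0.0145; -1.54 and -0.81 within slides). Among 29 alternative fits, 28 kept the call, which was lost without SalD arrays 2 and 3 (adjusted p 0.0725). Dexamethasone differences were -0.37 after genistein and 0.46 in controls, neither called, and the interaction was -0.83 ± 0.41 (adjusted p 0.343). Among 10 genes of vitamin D metabolism and response, 1 rose and 0 fell after genistein (2.49% and 2.8% of all genes). In controls 1 rose and 2 fell (8.45% and 14.6%), and 2 were higher and 1 lower in GenD than in SalD (16.5% and 6.39%). The side-chain hydroxylase Cyp27a1 rose by 1.82 after genistein, Cyp27b1, which makes active vitamin D, gave -1.62 in controls, and the carrier Gc gave -1.28 in controls and 1.79 in GenD against SalD. Cyp2r1, the vitamin D 25-hydroxylase, rose by 0.85 in controls.

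Among the receptors that sense fatty acids, neither Ppara nor Ppard was called. Ppara, the driver of fatty acid oxidation in liver, was 0.68 ± 0.24 with dexamethasone after genistein (adjusted p 0.141) and 0.58 ± 0.24 in controls (adjusted p 0.0989). Its levels spanned -2.38 to -1.35 in GenD, -1.83 to -1.64 in SalD, -3.08 to -2.09 in GenV and -2.66 to -2.12 in SalV. The 4 SalD arrays lay above the 4 SalV arrays. Ppard, the form linked to implantation in mice, varied widely, with SalV array 3 at -7.20 and the other 3 between -4.35 and -3.32. That array and GenD array 1, at -5.22, were not well above background for Ppard. Dexamethasone differences were -0.18 after genistein and -0.61 in controls, with -2.01, -1.47 and -0.83 within slides in controls. In GenD against SalD Ppard was 1.37 ± 0.65 (limma adjusted p 0.132).

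Of 15 tested genes that PPARs are known to induce, 2 rose and 1 fell after genistein (2.49% and 2.8% of all genes). In controls 4 rose and 3 fell (8.45% and 14.6% of all genes). Pdk4, a brake on glucose oxidation, rose in both arms (1.40 after genistein and 1.72 in controls). Plin2, a lipid droplet coat protein, fell in both (-0.71 and -0.77). In controls the uncoupling protein Ucp3 rose by 1.81 and the oxidation enzyme Hadha gave -1.18. Hadha was 1.17 higher and Acadl, another oxidation enzyme, -0.59 in GenD against SalD. They were the 2 called of the list there, where 16.5% of all genes were higher and 6.39% lower.

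Both liver X receptors, sensors of oxysterols that control cholesterol export and lipid synthesis, were lower in SalD. Nr1h2, the broadly expressed form, read 1.40, 1.46, 1.49 and 1.51 on GenD arrays and 0.43, 0.53, 0.64 and 1.23 on SalD arrays. On vehicle arrays it read 1.46, 1.56, 1.65 and 1.74 in GenV and 1.43, 1.45, 1.57 and 1.76 in SalV. The SalD arrays were the lowest 4 of 16, and the highest of them, 1.23, stood apart from the other 3. SalD was 1.8-fold lower than SalV (-0.85 ± 0.16, adjusted p 0.00289; -1.0, -0.81 and -0.69 within slides). All 29 alternative fits of Nr1h2 here kept the call. GenD was 1.69-fold higher than SalD (0.76 ± 0.16, adjusted p 0.00755; 0.85 and 1.03 within slides). With other settings the call was kept in 28 of 29 fits and ended with the normexp background (adjusted p 0.0609). The dexamethasone difference after genistein was -0.13 (adjusted p 0.752).

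Nr1h3, the form rich in macrophages, liver and fat, read 0.50, 0.56, 0.59 and 0.66 in GenD and -0.04, 0.02, 0.17 and 0.22 in SalD. It read 0.05, 0.59, 0.71 and 0.74 in GenV and 0.43, 0.57, 0.62 and 0.77 in SalV. The SalD arrays lay below all GenD and SalV arrays, and 1 GenV array, at 0.05, lay among them. The level was 1.42-fold lower in SalD than in SalV (-0.51 ± 0.15, adjusted p 0.0273; -0.55, -0.47 and -0.43 within slides). This call was kept in 23 of 29 alternative fits; it ended on leaving out any 1 of SalV 1, SalV 3, SalD 1 and SalD 3 (adjusted p 0.066 to 0.0702), and also with median scaling and without SalD arrays 2 and 3 (adjusted p 0.0857 to 0.231). It was 1.4-fold higher in GenD than in SalD (0.48 ± 0.15, adjusted p 0.0336; 0.54 and 0.57 within slides). Alternative fits kept it in 20 of 29 cases, and the call ended on leaving out any 1 of SalD 1, SalD 3, SalD 4, GenD 1, GenD 2, GenD 3 and GenD 4 (adjusted p 0.0512 to 0.0824), and also with median scaling and without SalD arrays 2 and 3 (adjusted p 0.109 to 0.113). The mean of 12 macrophage markers spanned -0.68 to -0.03 in GenD, -0.40 to 0.38 in SalD, -0.52 to 0.22 in GenV and -0.36 to -0.29 in SalV.

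Of 12 tested genes that liver X receptors induce, 0 rose and 1 fell after genistein (2.49% and 2.8% of all genes). In controls 2 rose and 2 fell (8.45% and 14.6% of all genes). Abcg5, a sterol exporter, fell in both arms (-1.80 after genistein and -1.50 in controls). The lipid synthesis genes Scd1 and Fasn rose in controls (2.00 and 0.78), beside the rise of adipocyte markers, whose part was not tested. Srebf1, the lipogenic transcription factor, was the 1 gene of the list called in GenD against SalD, higher by 0.55, where 16.5% of all genes were higher.

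The bile acid and xenobiotic receptors gave no call. Nr1h4, the bile acid receptor, spanned -4.11 to -3.24 in GenD, -4.41 to -3.06 in SalD, -4.70 to -2.39 in GenV and -3.62 to -2.78 in SalV. Nr1i2, a receptor for drugs and other foreign compounds, was well above background on 2 GenD and 2 GenV arrays and on 0 SalD and 0 SalV arrays. It read -8.59, -8.01, -6.50 and -6.24 in GenD and -8.90, -7.79, -6.37 and -5.79 in GenV, the 2 higher arrays of each group being those well above background. It passed the filter on dim signal through these 4 genistein arrays, so no fold or test of its own is given here. Nr1i2 stays in the counts, medians and figures of the 31 tested receptors. The receptors' median of -0.12 in GenD against GenV was the value of Nr1i2 itself. Nr1i3, a second xenobiotic receptor, was well above background on 12 of 16 arrays, and on 1 of the 4 GenD arrays. It read -7.64, -7.26, -7.06 and -4.79 in GenD, where the 3 lower arrays were not well above background, and -5.77, -5.55, -4.73 and -4.62 in SalD, where all 4 were. The groups overlapped, and Nr1i3 was not called (limma adjusted p 0.0766). No fold is quoted against a group mostly at background, though the figures draw it.

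Rora and Rorb, receptors of the ROR group, of which Rora drives clock gene transcription, were not called. Rora was -0.55 ± 0.26 in SalD against SalV and -0.55 ± 0.26 in GenV against SalV, with adjusted p of 0.133 and 0.359. A second Rora probe gave -0.79 in controls with an adjusted p over all probes of 0.0291, and the dimmest -0.20. The SalV arrays of the first probe spanned -0.35 to 0.18 and overlapped SalD and GenV at 1 array. Rorb was 0.40 after genistein and 0.10 in controls.

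Nr4a1, an orphan receptor whose gene is switched on within minutes by many stimuli, was higher with dexamethasone. It read 2.43, 2.62, 3.00 and 3.00 in GenD and 1.83, 2.05, 2.12 and 2.17 in GenV. The control arms gave 2.11, 2.42, 2.63 and 3.01 in SalD and 1.42, 1.92, 2.04 and 2.23 in SalV. GenD and GenV did not overlap, while the lowest SalD array, at 2.11, lay below the highest SalV array, at 2.23. In controls Nr4a1 was 1.56-fold higher in SalD than in SalV (0.64 ± 0.21, adjusted p 0.0436; 0.19, 0.59 and 1.01 within slides). In 14 of 29 alternative fits the call remained, and it was lost on leaving out any 1 of SalV 2, SalV 3, SalV 4, SalD 1, SalD 2, SalD 4, GenV 1, GenV 4 and GenD 3 (adjusted p 0.0512 to 0.135), and also with quantile normalization, with the normexp background, with no filter on dim probes, with a replicate block, with only the arrays compared and without GenV arrays 3 and 4 (adjusted p 0.0511 to 0.0916). After genistein the difference was 0.72 ± 0.21, larger in size but short of the threshold (adjusted p 0.0699), and the interaction was 0.08 ± 0.30 (adjusted p 0.919).

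Its relatives were not called. Nr4a2, also an immediate early gene, was -0.28 ± 0.27 after genistein and 0.13 ± 0.27 in controls, with SalD arrays spread over -1.51 to -0.11. Nr4a3 was well above background on 1 of 16 arrays, SalD 2, and was not tested. Among 14 genes induced early along with NR4A receptors, 2 rose and 1 fell after genistein (2.49% and 2.8% of all genes). In controls 2 rose and 1 fell (8.45% and 14.6% of all genes). In both arms the phosphatase Dusp1 (1.98 after genistein and 2.38 in controls) and the AP-1 subunit Fosl2 (0.46 and 0.95) rose, and the zinc finger factor Egr2 fell (-1.39 and -1.0). Fosl2 and Junb were lower in GenD than in SalD (-0.56 and -0.64), where 6.39% of all genes were lower.

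**Figure D4:**
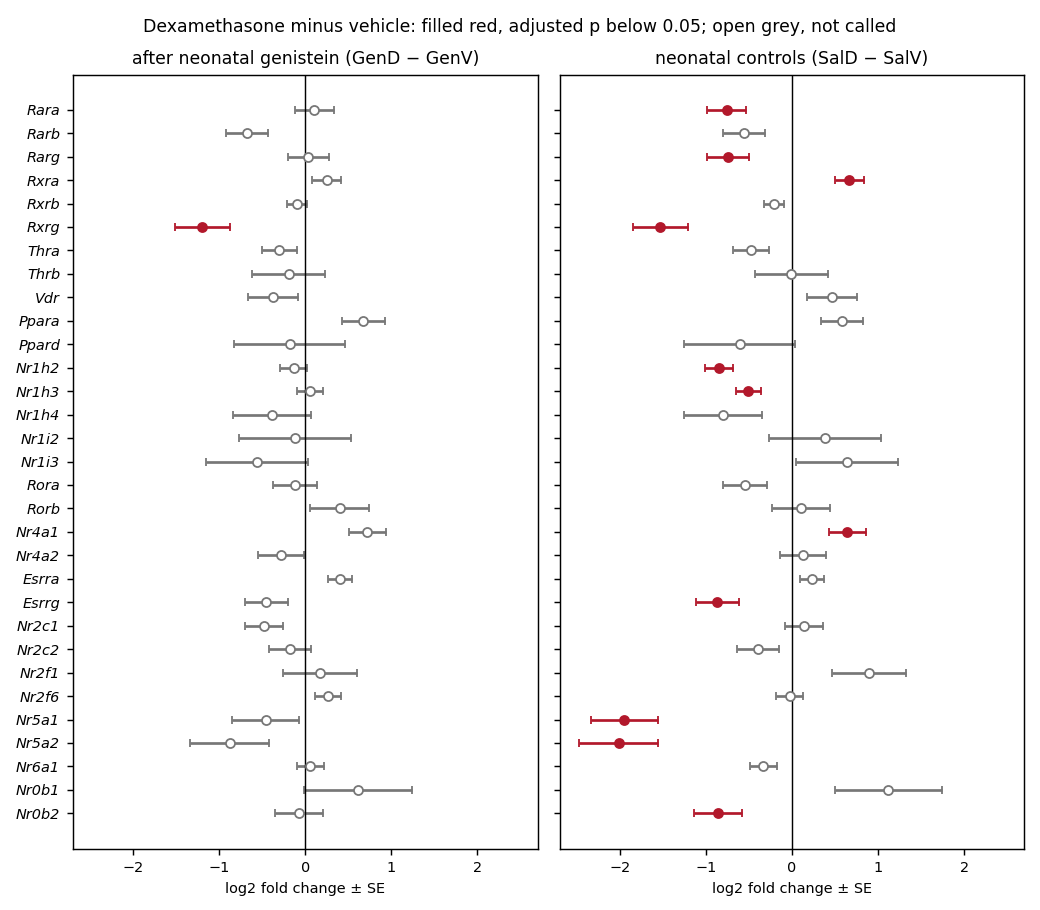
Log2 fold change ± SE of dexamethasone over vehicle for 31 receptors, after genistein (GenD minus GenV) on the left and in neonatal controls (SalD minus SalV) on the right; filled red points were called and open grey ones were not. The right panel has 11 red points, from -2.01 for Nr5a2 to 0.67 for Rxra, and the left panel has 1, Rxrg at -1.19.

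The estrogen-related receptors are orphans that act with PGC-1 coactivators on mitochondrial and metabolic genes. Esrrg was lower in SalD. It read -4.05, -3.80, -3.77 and -3.26 on GenD arrays and -5.07, -4.61, -4.30 and -4.11 on SalD arrays. GenV arrays gave -3.68, -3.31, -3.07 and -3.02 and SalV arrays -3.99, -3.92, -3.60 and -3.11. All SalD arrays lay below the other 12, though the gap to GenD was small, -4.11 beside -4.05. SalD was 1.82-fold lower than SalV (-0.87 ± 0.25, adjusted p 0.0263; -1.47, -1.35 and -0.11 within slides). Among 29 alternative fits, 20 kept the call, which was lost on leaving out any 1 of SalV 1, SalV 2, SalD 1 and SalD 4 (adjusted p 0.0546 to 0.0895), and also with quantile normalization, with median scaling, with the normexp background, with the mean of the gene's probes and with only the arrays compared (adjusted p 0.0551 to 0.2). GenD was 1.74-fold higher than SalD (0.80 ± 0.25, adjusted p 0.0374; 0.30 and 1.80 within slides). With other settings the call was kept in 19 of 29 fits and ended on leaving out any 1 of SalD 1, SalD 4, GenD 2, GenD 3 and GenD 4 (adjusted p 0.0612 to 0.101), and also with quantile normalization, with median scaling, with the normexp background, with the mean of the gene's probes and with only the arrays compared (adjusted p 0.0515 to 0.399). A dimmer Esrrg probe, well above background on 10 arrays, gave -0.02 in controls and -0.22 in GenD against SalD.

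Esrra, the widely expressed form, was 0.41 ± 0.14 with dexamethasone after genistein, where GenD at 1.28 to 1.39 lay above GenV at 0.76 to 1.25, and 0.23 ± 0.14 in controls (adjusted p 0.117 and 0.243). Esrrb, a pluripotency factor, was well above background on 0 of 16 arrays.

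The NR2 group holds orphan receptors that mostly repress transcription. Nr2f1, also called COUP-TFI, and Nr2f6 differed between the dexamethasone groups in opposite directions, and Nr2c1 and Nr2c2 were not called. Nr2f1 read -6.90, -6.74, -6.60 and -5.84 in GenD and -5.09, -5.09, -4.97 and -4.90 in SalD. Vehicle arrays read -7.73, -7.05, -5.99 and -5.99 in GenV and -6.71, -6.57, -5.40 and -4.97 in SalV. The SalD arrays were tightly grouped above all GenD and GenV arrays and overlapped SalV, and 1 array each of GenD, GenV and SalV was not well above background. GenD was 2.84-fold lower than SalD (-1.51 ± 0.43, adjusted p 0.0254; -1.65 and -1.51 within slides). This call was kept in 21 of 28 alternative fits; it ended on leaving out any 1 of SalD 3, SalD 4, GenD 2, GenD 3 and GenD 4 (adjusted p 0.0514 to 0.0685), and also with the normexp background and without SalD arrays 2 and 3 (adjusted p 0.112 to 0.307). With the normexp background the sign turned, to 0.76.

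Nr2f6 read 3.78, 3.88, 3.89 and 3.90 in GenD and 3.14, 3.29, 3.39 and 3.60 in SalD. Under vehicle it read 3.37, 3.45, 3.75 and 3.81 in GenV and 3.06, 3.32, 3.47 and 3.69 in SalV. All GenD arrays lay above all SalD arrays but 1 GenV array reached into their range. The GenD level was 1.42-fold higher (0.51 ± 0.15, adjusted p 0.0328; 0.39 and 0.61 within slides). Alternative fits kept it in 19 of 29 cases, and the call ended on leaving out any 1 of SalD 1, SalD 2, SalD 3, GenD 1, GenD 2, GenD 3 and GenD 4 (adjusted p 0.0504 to 0.0777), and also with median scaling, with the normexp background and without SalD arrays 2 and 3 (adjusted p 0.106 to 0.234). Nr2c2, a testicular orphan receptor, was -0.70 ± 0.24 in GenV against SalV, the smallest unadjusted p of the receptors in that comparison (0.0125, limma), but not called (adjusted p 0.344). Its relative Nr2c1 was 0.51 there. Nr2e1 and Nr2e3, known from neural stem cells and photoreceptors, were well above background on 2 and 0 of 16 arrays.

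The NR5 receptors gave the steepest falls among the receptors called in controls. Nr5a1, or steroidogenic factor 1, sets up the adrenal and gonadal steroid pathway, and Nr5a2, or LRH-1, acts in ovary and liver and is needed in the mouse uterus for decidua to form. Nr6a1, the germ cell nuclear factor, was not called.

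Nr5a1 read -5.03, -4.72, -4.20 and -4.11 on GenD arrays and -7.13, -6.15, -5.70 and -5.53 on SalD arrays. GenV arrays read -4.64, -3.90, -3.86 and -3.83, and SalV arrays -4.98, -4.50, -3.82 and -3.43. All 4 SalD arrays lay below the other 12, and 1 of them was not well above background. SalD was 3.86-fold lower than SalV (-1.95 ± 0.39, adjusted p 0.00391; -2.51, -2.27 and -1.17 within slides). All 28 alternative fits of Nr5a1 here kept the call. GenD was 3.06-fold higher than SalD (1.61 ± 0.39, adjusted p 0.0122; 1.43 and 1.49 within slides). All 28 alternative fits of Nr5a1 here kept the call. After genistein the dexamethasone difference was -0.46 ± 0.39 (adjusted p 0.615), and the interaction of 1.49 ± 0.55 was not called (adjusted p 0.238).

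Genes of ovary and steroid glands moved in the same comparisons as Nr5a1. Of 9 measured of 12 listed, 3 were lower in SalD than in SalV (Cyp11a1 -1.86, Cyp17a1 -1.22 and Cyp19a1 -1.29), beside 14.6% of all genes. In GenD 5 were higher than in SalD, with Cyp11a1 at 2.45, beside 16.5% of all genes. The mean level of the list spanned -5.10 to -4.53 in GenD, -5.84 to -5.80 in SalD, -4.65 to -4.50 in GenV and -5.49 to -4.38 in SalV, so it is dim throughout. Cyp11b1, Cyp11b2 and Lhcgr had no probe past the filter. In whole tissue RNA, fewer cells of a type and less RNA per cell cannot be told apart, and the part of such cells, or of the shift of dim genes, in the Nr5a1 values was not tested.

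Nr5a2 read -4.70, -4.22, -3.55 and -3.40 in GenD and -4.18, -3.47, -2.43 and -2.28 in GenV. The control arms read -4.96, -4.50, -4.43 and -2.96 in SalD and -2.41, -2.31, -2.06 and -2.03 in SalV. Every SalD array lay below every SalV array, 1 of them, at -2.96, well apart from the rest. In controls Nr5a2 was 4.04-fold lower (-2.01 ± 0.46, adjusted p 0.00837; -2.47, -2.37 and -1.56 within slides). In 28 of 29 alternative fits the call remained, and it was lost without SalD arrays 2 and 3 (adjusted p 0.0877). After genistein the difference was -0.88 ± 0.46 with overlapping groups (adjusted p 0.354), and GenV against SalV was -0.89 ± 0.46 (adjusted p 0.38). Nr6a1 was 0.45 ± 0.16 in GenD against SalD, where the groups did not overlap (adjusted p 0.0542).

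Nr0b2, the small heterodimer partner, lacks a DNA-binding domain and represses other nuclear receptors, NR5 members among them, and it followed Nr5a1 in direction. It read -6.52, -5.91, -5.81 and -5.20 in GenD and -7.29, -7.28, -7.28 and -6.91 in SalD. Vehicle arrays read -5.95, -5.82, -5.71 and -5.66 in GenV and -7.01, -6.35, -6.34 and -5.60 in SalV. All SalD arrays lay below all GenD and GenV arrays, and 1 SalV array fell among them. Nr0b2 was in the dimmest class by mean signal. SalD array 2, at -7.29, and SalV array 3, at -6.35, were not well above background, so the folds of Nr0b2 rest partly on signal near background. SalD was 1.82-fold lower than SalV (-0.86 ± 0.28, adjusted p 0.0388; -1.50, -0.93 and -0.28 within slides). Among 28 alternative fits, 14 kept the call, which was lost on leaving out any 1 of SalV 1, SalV 3, SalV 4, SalD 1, SalD 2, SalD 3, SalD 4 and GenD 3 (adjusted p 0.0507 to 0.127), and also with quantile normalization, with median scaling, with the normexp background, with a replicate block, with only the arrays compared and without SalD arrays 2 and 3 (adjusted p 0.053 to 0.371). GenD was 2.52-fold higher than SalD (1.33 ± 0.28, adjusted p 0.00767; 1.47 and 2.08 within slides). With other settings the call was kept in 25 of 28 fits and ended with quantile normalization, with the normexp background and without SalD arrays 2 and 3 (adjusted p 0.0513 to 0.0644). Nr0b1, or DAX1, the other receptor of this kind, spanned -7.06 to -3.42 in SalD alone and was not called in any comparison.

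**Figure D5:**
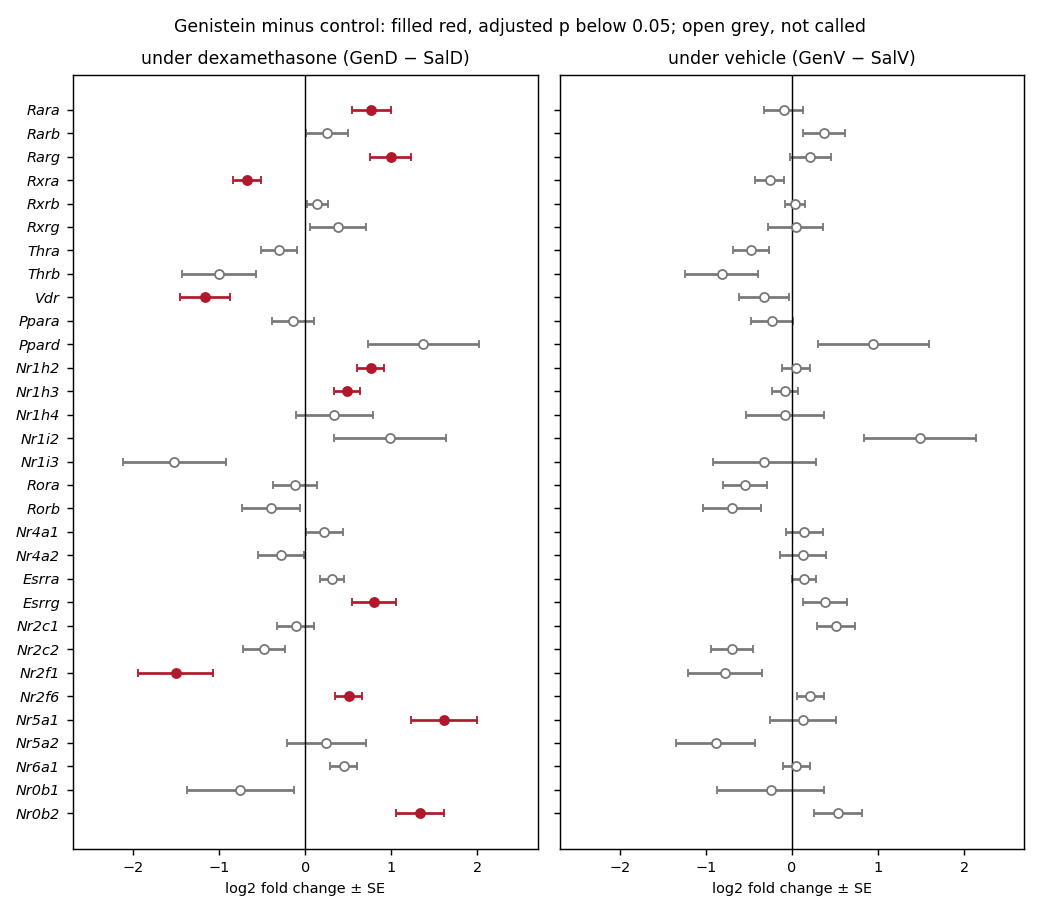
Log2 fold change ± SE of genistein over control for 31 receptors, under dexamethasone (GenD minus SalD) on the left and under vehicle (GenV minus SalV) on the right; filled red points were called. The left panel has 11 red points, from -1.51 for Nr2f1 to 1.61 for Nr5a1, and the right panel has 0. Nr1i2, which passed the filter on dim signal through genistein arrays only, is among the open points.

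The series title asks whether neonatal genistein alters the response to glucocorticoid, and the interaction is the test of that difference. It called 0 of 31 receptors and 0 of 24651 genes (0% by limma), with 5 receptors (16.1%) and 3830 genes (15.5%) at an unadjusted p below 0.05. Nr1h2 had the smallest p of the receptors, with a difference of 0.71 ± 0.22 (unadjusted p 0.00665, adjusted p 0.204). The others below that limit were Rara (0.87), Nr5a1 (1.49), Nr1h3 (0.56) and Rarg (0.78). So the count of 11 calls in controls beside 1 after genistein is not shown to be a difference between the arms. Of the 11 receptors called in controls, 8 had the same sign after genistein and 3, Rara, Rarg and Nr1h3, had the opposite sign, with values of 0.11, 0.04 and 0.06. Under vehicle, GenV against SalV gave 5 receptors at an unadjusted p below 0.05 (16.1%), beside 13.9% of all genes, and a median of 0.03, beside 0.05 over all genes. Nr1i2, which passed the filter on dim signal through genistein arrays only, was among those 5, so no excess is read from that share.

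Coregulators are the proteins that receptors recruit to activate or silence genes. Of 20 tested, 0 rose and 1 fell after genistein (0% and 5%, beside 2.49% and 2.8% of all genes), the corepressor subunit Tbl1xr1 (-0.58). In controls 2 rose and 2 fell (10% each, beside 8.45% and 14.6% of all genes), led by the coactivator Ncoa4 (0.67), the corepressor Ncor1 (-0.64) and the coactivator Ncoa2 (0.50). In GenD against SalD 1 was higher and 5 were lower (5% and 25%, beside 16.5% and 6.39% of all genes), with the ligand-dependent corepressor Lcor at -1.19, the corepressor subunit Tbl1x at -0.82 and the acetyltransferase Crebbp at -0.62. Under vehicle 0 of 20 differed between GenV and SalV, beside 0.00406% of all genes.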

How the data were processed

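Whole uterus RNA was labelled with Cy3 and hybridised to 16 one-colour Agilent arrays. The authors deposited scanner files of spot intensity, background-subtracted by Agilent Feature Extraction 12.0.0.7 per the file headers (version 9.5 per the submitters' processing notes), and a value table that equals this intensity (largest difference 0). Flags per the file headers marked outliers and signal well above background. Of 45018 spots, 1639 were controls. From the 41174 probes, log2 intensity minus the array's 75th percentile was computed, with repeat spots averaged, 807 probes with a missing value dropped and 32598 kept that were well above background on at least 4 arrays. RefSeq accessions named 28223 of 29245 RefSeq probes, and the brightest kept probe stood for a gene, giving 24651 genes and targets, 16528 with a symbol. The array grid and the annotation use different builds, so the only coordinates given are those of the RefSeq promoter windows.

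The 4 group means were fitted with limma, version 3.58.1, under R 4.3.3 to the 16 arrays together (files read with data.table, version 1.17.8), two-sided, with Benjamini-Hochberg adjustment within each of 5 comparisons. The number of arrays limits the precision. All 35 members are accounted for; those called are given on every array, and up to 3 called genes with the largest change are named per pathway list, except a few that are not reported here. The members, pathway lists, marker lists and rules were chosen with earlier results of these data known. Alternatives changed scaling, background (normexp on median spot and local background signal, offset 50), filters, probe choice, slide, replicate number, arrays and weights. The fit was tested on simulated data. Figures used matplotlib 3.10.9 in Python 3.11.15.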

Additional observations from a re-analysis of the deposited data

Results flagged for a closer look

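Over 35 receptors and 4 groups, 140 groups of 4 arrays were checked for 1 array far from the others, and 6 had a gap, as a share of the group's range, above Dixon's critical value for 4 arrays, where chance alone gives about 1 in 20. Nr4a3 read -5.01 on SalD array 2, the only array of 16 where it was well above background, and -9.49 to -9.14 on the other SalD arrays. Nr0b2 read -6.91 on SalD array 4, above the other 3 at -7.29 to -7.28, of which array 2 was not well above background. Nr5a1 read -4.64 on GenV array 1, below the other 3 at -3.90 to -3.83. In SalV, Rarg read -2.01 on array 1, above the other arrays at -2.41 to -2.34. Ppara read -2.66 on SalV array 4, with the other arrays at -2.20 to -2.12. Nr2c2 read -1.52 on SalV array 2, with the other arrays at -1.80 to -1.76. The causes were not tested.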

How the results depend on the processing

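The 23 member results called were refitted under 29 alternatives, 16 of them with 1 array left out and 2 added after the data were seen. Of 662 refitted values, 527 kept the call, 134 lost it with the same sign and 1 reversed, Nr2f1 in GenD against SalD at 0.76 with the normexp background. Fits that left out arrays of neither group compared could not move the fold change. They changed only the shared estimate of the spread, so the counts of calls kept, here and above, include fits that tested little. All 58 differences within a slide kept their sign. Where the groups compared did not overlap, that sign was fixed in advance by the same arrays. Among the called results the groups overlapped only for Nr4a1 and Nr0b2 in controls. Nr5a1 in both comparisons, and Nr1h2 and Rxrg in controls, kept the call in every alternative run. The cause of each move below was not tested. Dexamethasone in controls called 11 receptors, and 7 with quantile normalization, median scaling or the normexp background, and 5 without SalD arrays 2 and 3; over the table it called 5669 genes, 3332 with normexp and 3585 without those arrays. After genistein 1 receptor was called, 2 with a filter on all 16 arrays, 9 with array weights, and 0 with normexp, with no filter, with slide as a fixed block or with only the arrays compared; of 1303 genes, normexp left 379, the slide block 831, only the arrays compared 571, and array weights gave 6065. In GenD against SalD 11 receptors became 5 with normexp, 17 with array weights and 3 without SalD arrays 2 and 3, and 5654 genes became 3302, 11033 and 2394 in the same order. The interaction called 96 genes with array weights and 1 without GenV arrays 3 and 4, in place of 0. In GenV against SalV 1 gene was called, 2 with array weights, and 0 with quantile normalization, median scaling, normexp, no filter, the slide block, the replicate block, only the arrays compared, or without either pair of arrays. With 1 array left out, called receptors ranged from 6 to 11 in controls, 0 to 1 after genistein, 0 to 0 for the interaction and for GenV against SalV, and 6 to 12 in GenD against SalD. Over the table the ranges were 3107 to 5883, 719 to 1230, 0 to 1, 0 to 2 and 3293 to 5972 for those 5 comparisons. Samples shared replicate numbers across groups, but deviations of same-numbered arrays correlated at -0.37 to 0.38, so the numbers were not taken as pairs; with a replicate block 10 receptors and 6080 genes were called in controls, 1 and 1356 after genistein, and 11 and 5799 in GenD against SalD, and the calls of Nr4a1 and Nr0b2 in controls ended. Dim signal limits Nr4a3, Esrrb, Nr2e1, Nr2e3 and Nr1i2, which were at background on most arrays.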
